A study of Mus musculus with 9 samples.

Results

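The genes described here, 10 in number, belong to the secretory epithelium that lines the airways, and were followed through the cardiac transcriptomes of transgenic and control mice. They were taken by name (Scgb1a1, Scgb3a1, Scgb3a2, Bpifa1, Bpifb1, Sec14l3, Cyp2f2, Cyp2a5, Reg3g and Muc5b), and are 10 of 41710 gene names with a row in the deposited table. They were chosen by their read numbers in these same 9 libraries, so their levels and the differences between groups are given as a description, without a test. The hearts came from male mice of FVB/N background at an age of 8 months, and the RNA was that of the frozen heart. There were 3 groups of 3 libraries: mice that carry an RKIP transgene (Tg-RKIP), mice labelled as carrying a GRK2 transgene (Tg-GRK2), and FVB/N mice without a transgene (FVB). RKIP, encoded by Pebp1, is a kinase inhibitor, and its transgene is driven in the myocardium by the alpha-MHC promoter. Pebp1 stood at 16198 ± 208 TPM (abundance scaled by transcript length and library total, mean ± s.d., n = 3) in Tg-RKIP against 325 ± 4.54 TPM in FVB. Grk2 stood at 27.3 ± 2.90 TPM in the Tg-GRK2 group against 27.1 ± 1.05 TPM in FVB (log2 fold change 0.05, adjusted p = 0.354, edgeR), so that group is called GRK2-labelled throughout. The promoter of its transgene is not given in the sources used here. The study describes its Tg-RKIP and FVB transcript data as 3 mice per group. For the GRK2-labelled libraries no source used here says whether they are of separate mice, so their spread, and p-values that rest on it, may be technical.

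Each library held between 25458108 and 33447654 reads. Mitochondrial transcripts took 11.5 to 11.8% of reads in Tg-RKIP, 22.4 to 22.9% in the GRK2-labelled group and 22.9 to 23.2% in FVB. Heart muscle genes such as Myh6 and Tnnt2 were abundant in all 9 libraries, whose 8 heart muscle markers summed to between 47669 and 49903 TPM. In bulk heart RNA, fewer cells of a type and less RNA per cell cannot be told apart.

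The airway surface is kept clean by secretory (club and goblet) cells, ciliated cells and submucosal glands. Club cells release secretoglobins and carry cytochromes P450 that oxidise inhaled compounds. BPI fold proteins and mucins form part of the fluid and mucus layer, which multiciliated cells move towards the throat.

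Among the members, 2 pairs lie close together on a chromosome. Coordinates are those of the deposited tables, for which the submitters' processing notes name the GRCm39 build. Bpifa1 (chromosome 2, 153984800 to 153991139) and Bpifb1 (154032738 to 154062289) are separated by 41.6 kb, and the related gene Bpifa5 between them was listed with 0 reads in every library. Cyp2a5 (chromosome 7, 26534730 to 26542973) and Cyp2f2 (26819334 to 26833085) are 276.4 kb apart, and Muc5b (141392807 to 141426821) lies far away on the same chromosome. Scgb1a1 lies on chromosome 19 (9061000 to 9065322) and Reg3g on chromosome 6 (78443252 to 78445855). Sec14l3 (4014841 to 4027736) and Scgb3a1 (49554437 to 49555945) are both on chromosome 11. Their main transcripts range from 476 bases in 3 exons (Scgb1a1) to 14964 bases in 49 exons (Muc5b).

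Promoter sequences (250 bases before the start, RefSeq, GRCm38.p6) were on hand for 7 of the 10 members, with 2 starts for Bpifb1. They are of the reference genome, not of FVB/N mice. A set of 5 short motifs that factors of the airway epithelium or the basal machinery are known to bind were searched, on both strands except for TATAAA, which was searched on the strand of the gene alone. TGTTTAC and TATTTAC are bound by forkhead factors, CAAGTG by factors of the NKX2 family, TTNNGCAA by C/EBP factors, and TATAAA is the TATA box. Of the windows, 4 are shown, 2 for the neighbouring Bpif genes with a forkhead-type match and 2 for the matches of CAAGTG, with every match in capitals.
Bpifa1 (chr2:154142630-154142879, plus strand): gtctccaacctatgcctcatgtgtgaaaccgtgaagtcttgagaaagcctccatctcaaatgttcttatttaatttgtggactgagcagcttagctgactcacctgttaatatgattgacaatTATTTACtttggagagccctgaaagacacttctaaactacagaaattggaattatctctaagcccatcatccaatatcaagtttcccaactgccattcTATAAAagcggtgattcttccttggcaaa
Bpifb1, second start (chr2:154200130-154200379, plus strand): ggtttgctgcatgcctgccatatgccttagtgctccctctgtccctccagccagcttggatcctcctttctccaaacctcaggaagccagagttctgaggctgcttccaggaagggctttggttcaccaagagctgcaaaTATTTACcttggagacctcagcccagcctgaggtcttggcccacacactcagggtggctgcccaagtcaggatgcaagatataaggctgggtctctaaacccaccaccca
Cyp2f2 (chr7:27119705-27119954, plus strand): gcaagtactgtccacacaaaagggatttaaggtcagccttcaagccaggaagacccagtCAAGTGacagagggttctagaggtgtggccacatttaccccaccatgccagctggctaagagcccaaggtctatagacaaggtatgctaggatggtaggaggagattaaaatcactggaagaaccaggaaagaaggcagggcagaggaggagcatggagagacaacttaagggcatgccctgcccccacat
Scgb3a1 (chr11:49663345-49663594, plus strand): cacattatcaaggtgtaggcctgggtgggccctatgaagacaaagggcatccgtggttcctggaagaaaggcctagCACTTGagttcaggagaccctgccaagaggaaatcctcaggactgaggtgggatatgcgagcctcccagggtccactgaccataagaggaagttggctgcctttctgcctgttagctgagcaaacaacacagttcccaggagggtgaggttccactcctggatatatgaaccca
In Bpifa1 the capitals mark TATTTAC at 127 bases and TATAAA at 29 bases before the start. In Bpifb1 they mark TATTTAC at 110 bases before the downstream of its 2 starts. CAAGTG stands 191 bases before the start of Cyp2f2, and on the opposite strand (printed as CACTTG) 174 bases before that of Scgb3a1. Of the windows not shown, Cyp2a5 held TTNNGCAA and TATAAA, Reg3g held TATAAA and Sec14l3 held none of the motifs, while TGTTTAC was in no member's window. Of 32851 promoters of the same length, 3.17% held TGTTTAC, 2.73% TATTTAC, 11.61% CAAGTG, 9.56% TTNNGCAA and 7.59% TATAAA. No motif was found in more than 3 of the 7 members, and a match is not a site known to be bound in these hearts.

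All 10 members had reads in both transgenic groups and few or none in FVB. In each of the 10, the lowest Tg-RKIP library lay above the highest FVB library in TPM, and the lowest GRK2-labelled library lay above the highest Tg-RKIP library. These counts follow from how the genes were chosen. For Muc5b the lowest Tg-RKIP library held 1 read (0.00399 TPM) against 0 in FVB, where a count of 0 allows up to 3. The share of all genes without such overlap was not computed, and the shares of calls that follow are a different measure. Among all 15504 genes tested in edgeR's quasi-likelihood test, 36.8% were called higher in Tg-RKIP than in FVB (73.9% in either direction). Of the same genes, 12.2% were called higher in the GRK2-labelled group than in FVB (24.5% in either direction), and 36.6% higher there than in Tg-RKIP (74.5% in either direction). The 10 genes together held 1257 to 1621 reads per Tg-RKIP library, 2869 to 3425 reads per GRK2-labelled library and 10 to 17 reads per FVB library.

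**Figure D1:**
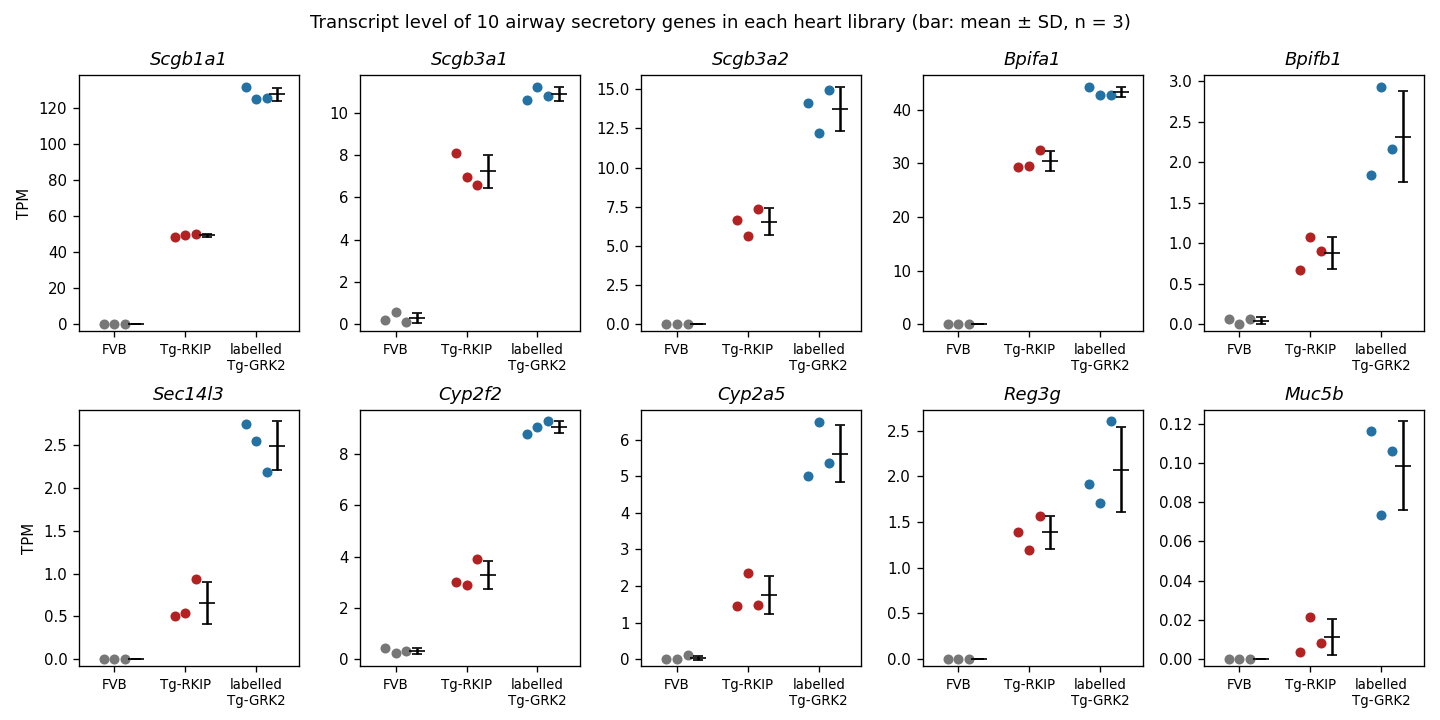
Transcript level in TPM of each of the 10 genes (one panel each, with its own vertical axis from 0) in the 3 FVB, 3 Tg-RKIP and 3 GRK2-labelled libraries, with the mean and SD beside the points. In every panel the FVB libraries lie at or near 0, the Tg-RKIP libraries above them and the GRK2-labelled group highest, as for Scgb1a1 at 0, 49.4 and 128 TPM.

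Secretoglobins are small secreted proteins, and Scgb1a1 is the defining product of the club cell. Scgb1a1 had 388, 510 and 395 reads in Tg-RKIP, 1190, 1085 and 1284 reads in the GRK2-labelled group, and 0 reads in each FVB library. Per length, Tg-RKIP stood at 49.4 ± 0.693 TPM and the GRK2-labelled group at 128 ± 3.78 TPM (n = 3 each), the highest level of the 10 genes in both groups. With FVB set to 3 reads per library, the limit that a count of 0 allows, the level of Scgb1a1 was higher by a factor of at least 111 for Tg-RKIP and at least 369 for the GRK2-labelled group. These folds and those that follow are of reads scaled by TMM, which adjusts each library for its composition.

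Scgb3a2, another club cell secretoglobin, lies on chromosome 18 (43897354 to 43900464) and also had 0 reads in each FVB library. It had 61, 67 and 67 reads in Tg-RKIP and 147, 122 and 176 reads in the GRK2-labelled group, so the transgenic groups did not overlap. It was at least 16.9-fold and 45.9-fold higher than in FVB, respectively. Scgb3a1, a secretoglobin of larger airways, had 67, 76 and 54 reads in Tg-RKIP and 99, 101 and 116 reads in the GRK2-labelled group, but also 2, 6 and 1 reads in FVB. The ratio to FVB was 16.9 in Tg-RKIP (95% counting interval 8.74 to 37.6) and 32.9 in the GRK2-labelled group (17.1 to 72.5). Counting intervals are exact, from the binomial distribution, and cover counting error only.

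Of the BPI fold family, Bpifa1 (SPLUNC1), a secreted antimicrobial protein of the nose and large airways, was the member with most reads in Tg-RKIP. It had 544, 705 and 597 reads in Tg-RKIP, 928, 862 and 1014 reads in the GRK2-labelled group and 0 reads in each FVB library. In TPM it stood at 30.5 ± 1.82 and 43.3 ± 0.879, and its folds over FVB were at least 159 and at least 290. Bpifb1 (LPLUNC1), which goblet cells and glands release, was far less abundant, at 0.88 ± 0.203 and 2.31 ± 0.561 TPM. Tg-RKIP had 19, 38 and 26 reads of it, the GRK2-labelled group 57, 88 and 76, and FVB 2, 0 and 2. The ratio to FVB was 16.1 (6.04 to 60.3) in Tg-RKIP and 51.7 (19.9 to 191) in the GRK2-labelled group. All 19 reads of Tg-RKIP library 1 were counted on a transcript from the first of the gene's 2 starts, which had 0 reads in the other 5 transgenic libraries. The transcript from the second start carried 92.5% of the gene's reads over all libraries.

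The cytochrome P450 members were detected in every transgenic library, and Cyp2f2 in every FVB library too. Cyp2f2, a P450 that is abundant in mouse club cells and activates naphthalene, had 94, 117 and 117 reads in Tg-RKIP and 311, 308 and 371 reads in the GRK2-labelled group. FVB had 13, 9 and 6 reads, the most FVB reads of any member. The ratio to FVB was 9.06 (6.15 to 13.8) in Tg-RKIP and 33.1 (22.8 to 50.1) in the GRK2-labelled group. Of all 50-base stretches of its main transcript, 10.02% also occur in Gm15883, which held at most 1 read in any library. Cyp2a5, a P450 of the nasal and airway lining and the liver that oxidises nicotine and coumarin, had 45, 53 and 34 reads in Tg-RKIP and 142, 137 and 185 in the GRK2-labelled group. FVB had 0, 0 and 1 reads, so the ratios of 102 (18 to 4063) and 434 (77.6 to 17189) have wide intervals. Its counts are uncertain, since 40.84% of its 50-base stretches occur in other genes too, 31.01% in the near-identical Cyp2a4, which was listed at 0 reads in every library.

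Sec14l3, a lipid-binding SEC14-like protein of the airway epithelium, differed more between the transgenic groups than the secretoglobins did. It had 20, 28 and 18 reads in Tg-RKIP, 115, 122 and 126 reads in the GRK2-labelled group and 0 reads in each FVB library. Of the 18 reads in Tg-RKIP library 3, 9 were counted on a short transcript of 773 bases, and this library had the group's highest level, 0.941 TPM against 0.5 and 0.537. Reg3g, an antibacterial lectin that epithelia release, had 18, 20 and 20 reads in Tg-RKIP, 28, 24 and 43 reads in the GRK2-labelled group and 0 in FVB. Its folds over FVB were at least 5.03 and at least 9.72. Muc5b, the gel-forming mucin that secretory cells and glands add to airway mucus, had 1, 7 and 2 reads in Tg-RKIP, 33, 20 and 34 in the GRK2-labelled group and 0 in FVB. It was at least 8.96-fold higher in the GRK2-labelled group than in FVB, and no fold is given for Tg-RKIP, which had 3 reads or fewer in 2 of its libraries. As the longest transcript it also had the lowest level per length, 0.0986 ± 0.0225 TPM in the GRK2-labelled group.

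Levels per length were ordered much alike in both transgenic groups. Scgb1a1 and Bpifa1 came first and second, with ranges that did not overlap with each other or with the next gene. Scgb3a1 (7.24 ± 0.787 TPM) and Scgb3a2 (6.54 ± 0.864 TPM) overlapped in Tg-RKIP, whereas in the GRK2-labelled group Scgb3a2 (13.7 ± 1.42 TPM) lay above Scgb3a1 (10.9 ± 0.329 TPM) without overlap. Cyp2f2 and Cyp2a5 followed in both groups, at 3.27 ± 0.556 and 1.76 ± 0.52 TPM in Tg-RKIP and 9.04 ± 0.239 and 5.63 ± 0.779 TPM in the GRK2-labelled group. Sec14l3, Bpifb1 and Reg3g came next. Reg3g overlapped with Cyp2a5 in Tg-RKIP and Bpifb1 with Sec14l3 in both groups, and Muc5b was last. In FVB, Cyp2f2 (0.324 ± 0.107 TPM) and Scgb3a1 (0.308 ± 0.249 TPM) overlapped at the top, and 6 members were listed at 0 in each library.

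The sum of the 10 genes was 41.9 ± 1.95 TMM-scaled CPM (reads scaled to a common library size) in Tg-RKIP, 112 ± 2.13 in the GRK2-labelled group and 0.539 ± 0.136 in FVB (n = 3 each). This sum was 77.8-fold higher in Tg-RKIP and 208-fold higher in the GRK2-labelled group than in FVB, and in TPM the folds were 143 and 305. Between the transgenic groups, it was 2.68-fold higher in the GRK2-labelled group on the TMM scale and 2.14-fold higher in TPM. Between the transgenic groups, the gap between scales goes with the lower mitochondrial share and the higher TMM factors of Tg-RKIP (1.18 to 1.19, against 0.913 to 0.928 in the other 6 libraries). For the GRK2-labelled group over FVB the scales also differed, although TMM factors and mitochondrial shares of these groups were alike. Library size alone gave a log2 difference of 7.71 there, against 7.70 with TMM and 8.25 in TPM. What part the scaling by transcript length had in TPM was not tested.

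The ratio between the transgenic groups was not the same for all members. Bpifa1 was 1.84-fold (95% counting interval 1.73 to 1.95) higher in the GRK2-labelled group than in Tg-RKIP, Scgb3a1 1.94-fold (1.62 to 2.33) and Reg3g 1.98-fold (1.41 to 2.80). Scgb3a2, at 2.76 (2.33 to 3.28), and Bpifb1, at 3.22 (2.49 to 4.20), like Reg3g, had intervals that held the ratio of the sum. Scgb1a1, at 3.33 (3.12 to 3.55), and Cyp2f2, at 3.65 (3.22 to 4.15), lay above it. The ratios were higher still for Cyp2a5, at 4.25 (3.50 to 5.20), Sec14l3, at 6.65 (5.11 to 8.79), and Muc5b, at 10.5 (5.46 to 22.7), although Muc5b rests on 10 reads in Tg-RKIP.

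**Figure D2:**
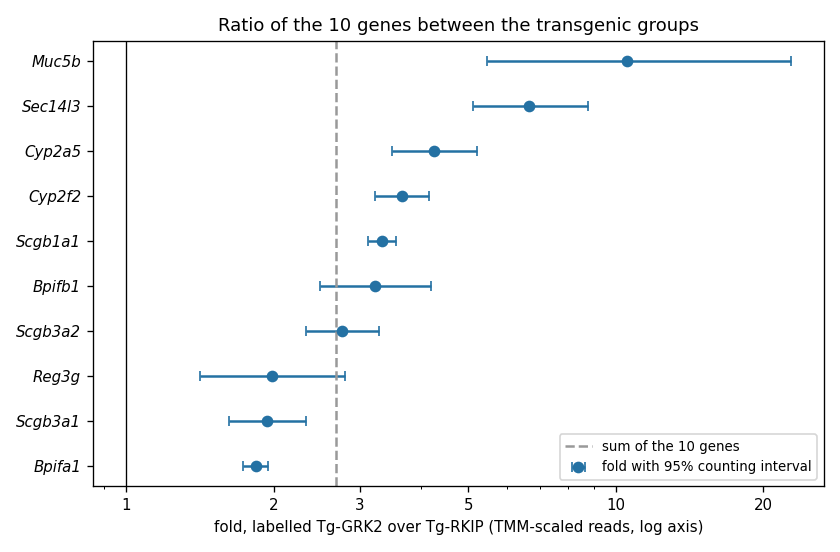
Ratio of TMM-scaled reads in the GRK2-labelled group over Tg-RKIP for each of the 10 genes, on a log axis, with 95% counting intervals. The solid line marks a ratio of 1 and the dashed line the ratio of the sum, 2.68. Bpifa1 (1.84) and Scgb1a1 (3.33) have narrow intervals on opposite sides of the dashed line, and Muc5b (10.5) has the highest ratio and the widest interval.

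The make-up of the members' reads differed between the transgenic groups. Bpifa1 gave 43.3, 43.5 and 44.9% of the 10 genes' reads in the Tg-RKIP libraries, but 30.4, 30.0 and 29.6% in the GRK2-labelled group. Scgb1a1 gave 30.9, 31.5 and 29.7% against 39.0, 37.8 and 37.5%. For every read of Scgb1a1 there were 1.38 to 1.51 reads of Bpifa1 in Tg-RKIP and 0.78 to 0.795 in the GRK2-labelled group, so the order of these genes by reads was turned round. The share of Sec14l3 was 1.56 ± 0.189% against 3.90 ± 0.308%, and that of Cyp2f2 7.83 ± 0.847% against 10.6 ± 0.342%. Scgb3a2, by contrast, had a like share in both groups, 4.67 ± 0.478% and 4.74 ± 0.449%. These shares need no scaling between libraries, since they are taken within each one.

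**Figure D3:**
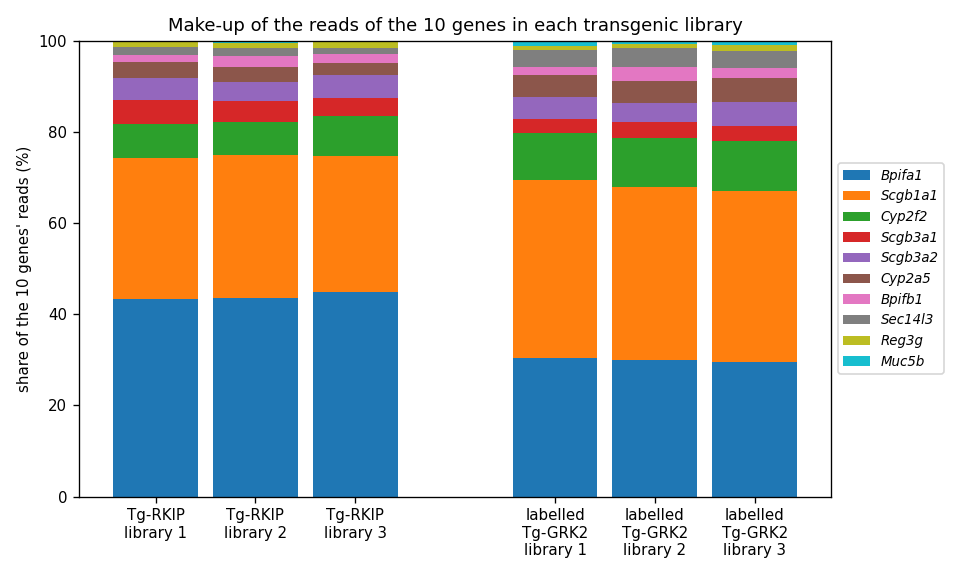
Share of each of the 10 genes in the summed reads of the 10 genes, in percent, as stacked bars for the 3 Tg-RKIP libraries and the 3 GRK2-labelled libraries. Bpifa1 (lowest segment) takes 43.3 to 44.9% in Tg-RKIP and 29.6 to 30.4% in the GRK2-labelled group, and the bars within a group are nearly the same.

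The spread between libraries of one group was small for the abundant members and larger for those with few reads. The coefficient of variation of Scgb1a1 was 2.19% in Tg-RKIP and 3.41% in the GRK2-labelled group, and that of Bpifa1 was 6.68% and 2.45%. It was 21.9% and 23.8% for Bpifb1, 23.2% for Reg3g and 23.4% for Muc5b in the GRK2-labelled group, and 39.4% for Cyp2f2 in FVB. The variance between the 3 libraries was 0.189 and 1.32 times that of counting error for Scgb1a1, and 2.58 and 0.538 times for Bpifa1. The highest such value was 4.03, for Bpifb1 in the GRK2-labelled group. Of the 9 pairs of libraries within a group, 0 held identical counts.

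Many related genes had no reads in these hearts, most of them secretoglobins. Of 79 further genes of the members' families with a row in the table, 48 had 0 reads in all 9 libraries and 14 reached 30 reads in total. In the secretoglobin family, 29 of 31 further genes had 0 reads. Scgb1c1 was the exception with many reads, at 691, 894 and 760 in Tg-RKIP, 160, 163 and 193 in the GRK2-labelled group and 150, 215 and 212 in FVB. It rose in Tg-RKIP against FVB (log2 fold change 1.65 ± 0.083 SE, adjusted p = 6.76e-14) and was at -0.26 ± 0.11 in the GRK2-labelled group (adjusted p = 0.0963, edgeR), unlike the order of the members. In the Bpif family 9 of 12 further genes had 0 reads, and no further gene of the Bpif or Reg families reached 30 reads. Genes with 0 reads were fewer elsewhere: 6 of 12 for Cyp2, 2 of 6 for Reg, 2 of 14 for Muc and 0 of 4 for Sec14l. Cyp2b10, a P450 that lies 908.7 kb from Cyp2a5, had 183, 255 and 184 reads in Tg-RKIP, 447, 463 and 503 in the GRK2-labelled group and 392, 463 and 405 in FVB. It fell in Tg-RKIP (log2 fold change -1.39 ± 0.07, adjusted p = 2.1e-14). Among the further mucins, Muc15 rose in Tg-RKIP from 2, 3 and 1 reads in FVB to 15, 23 and 27 (3.01 ± 0.50, adjusted p = 1.45e-05). Muc4 fell there (-1.71 ± 0.51, adjusted p = 0.00475, edgeR), as did Muc16 (-0.27 ± 0.10, adjusted p = 0.0192), which rose in the GRK2-labelled group (0.51 ± 0.09, adjusted p = 0.000253, edgeR). In TPM, however, Muc16 was higher in Tg-RKIP (5.52 ± 0.498) than in FVB (1.56 ± 0.454). Sec14l2 rose in Tg-RKIP as well (0.99 ± 0.21, adjusted p = 0.000283).

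The airway was further covered by 6 lists of other genes, 97 in all, which were counted gene by gene. The lists cover other secretory genes, glands and mucous cells, ciliated cells, basal cells, rare cell types and transcription factors of the airway. Only 36 of the 97 had enough reads to be tested. Of these, 16 rose and 9 fell in Tg-RKIP against FVB, where 36.8% of all 15504 genes tested rose and 37.1% fell. In the GRK2-labelled group against FVB 14 rose and 3 fell, where 12.2% of all rose and 12.2% fell. Against Tg-RKIP, 13 were higher and 11 lower in the GRK2-labelled group, where 36.6% of all were higher and 37.9% lower. The counts of single lists below are to be read beside the same shares. The median log2 fold changes of the 36 were 0.57, 0.28 and 0.10 in these comparisons, where the medians of all 15504 genes were 0.01, 0.00 and -0.02. Of the 36, 8 rose in both transgenic groups against FVB. The lists were written with earlier results of these data known, so these counts and medians of lists are a description and not a test.

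Of 22 other secretory genes, 14 were tested, and 8 rose and 2 fell in the GRK2-labelled group, while 5 rose and 5 fell in Tg-RKIP. Cbr2, a carbonyl reductase of club cells, had 996, 1338 and 1023 reads in Tg-RKIP, 874, 830 and 996 in the GRK2-labelled group and 429, 490 and 435 in FVB. It rose by 0.94 ± 0.04 and 0.90 ± 0.04 on the log2 scale (adjusted p = 1.5e-14 and 1.8e-12). Wfdc2, a secreted protease inhibitor, rose in both as well (0.95 ± 0.26 and 1.43 ± 0.25, adjusted p = 0.0026 and 0.00021). So did Cyp2s1, a P450 of epithelia (0.42 ± 0.11 and 0.47 ± 0.11, adjusted p = 0.0019 and 0.0043). Other abundant genes of this list went the other way. Cyp4b1 fell in both groups (-0.66 ± 0.05 and -0.23 ± 0.05, adjusted p = 1.4e-10 and 0.0017, edgeR). Gsta3 fell in the GRK2-labelled group (-0.47 ± 0.06, adjusted p = 3.1e-06, edgeR) and Gsta4 in Tg-RKIP (-0.12 ± 0.03, adjusted p = 0.00125, edgeR). Muc1, a membrane mucin, had 15, 10 and 12 reads in Tg-RKIP, 19, 15 and 17 in the GRK2-labelled group and 6, 7 and 4 in FVB, and passed the threshold in the GRK2-labelled group against FVB (1.47 ± 0.39, adjusted p = 0.0075). Muc4, another membrane mucin, had 3, 5 and 2 reads in Tg-RKIP, 12, 19 and 25 in the GRK2-labelled group and 8, 12 and 6 in FVB. It fell in Tg-RKIP (-1.71 ± 0.51, adjusted p = 0.00475) and stood at 1.00 ± 0.36 in the GRK2-labelled group (adjusted p = 0.0498), a call that several alternatives did not make. Cyp2a4, Chil4, Clca1 and Upk3a had at most 1 read in any library.

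Of 12 gland and mucous genes, 3 were tested. Ltf, which encodes lactoferrin, an iron-binding protein of glands and of neutrophils, was likewise nearly absent from FVB. It had 156, 191 and 128 reads in Tg-RKIP, 116, 121 and 164 in the GRK2-labelled group and 1 read in each FVB library, a ratio of 122 (41.7 to 596) and 125 (42.5 to 609). Both changes passed the test (adjusted p = 6.7e-15 and 2.5e-13), and the transgenic groups overlapped in reads, unlike for the members. Pigr, which carries secretory antibodies through epithelia, had 6, 6 and 12 reads in Tg-RKIP, 26, 34 and 34 in the GRK2-labelled group and 3, 1 and 2 in FVB. It rose in both (1.58 ± 0.61 and 3.80 ± 0.46, adjusted p = 0.023 and 2.1e-06) and was higher in the GRK2-labelled group than in Tg-RKIP (2.22 ± 0.35, adjusted p = 6.5e-06, edgeR). The rise in Tg-RKIP was lost without Tg-RKIP library 3 (adjusted p = 0.137), FVB library 2 (0.11) or FVB library 3 (0.0507). Muc5ac, Tff2 and Agr2, markers of mucous cells, had at most 2 reads in any library.

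Of 32 genes of ciliated cells, 12 were tested. In Tg-RKIP 5 rose and 3 fell, and in the GRK2-labelled group 3 rose (Dnah5, Hydin and Cdhr3) and 1 fell (Mlf1). Dnah5, a dynein heavy chain of motile cilia, had 5, 6 and 4 reads in Tg-RKIP, 22, 16 and 37 in the GRK2-labelled group and 1, 1 and 2 in FVB. It rose in the GRK2-labelled group (4.01 ± 0.51, adjusted p = 3.9e-06) and stood at 1.46 ± 0.71 in Tg-RKIP (adjusted p = 0.069). Hydin, a protein of the cilium's central pair, was lower in the GRK2-labelled group than in Tg-RKIP (-1.38 ± 0.23, adjusted p = 1.35e-05, edgeR), with 59, 69 and 60 reads in Tg-RKIP, 17, 19 and 24 in the GRK2-labelled group and 10, 6 and 9 in FVB. Its call in the GRK2-labelled group (1.15 ± 0.32, adjusted p = 0.0108, edgeR) was lost without FVB library 2 (adjusted p = 0.0675). Rsph9, a radial spoke protein, rose in Tg-RKIP (1.53 ± 0.25, adjusted p = 1.2e-05), whereas Mlf1, which is abundant in these hearts, fell there (-1.51 ± 0.03, adjusted p = 1.95e-20).

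Of 7 basal cell genes 2 were tested, and Ngfr rose in both transgenic groups (0.94 ± 0.17 and 0.65 ± 0.18, adjusted p = 4.1e-05 and 0.0097). Of 10 genes of rare airway cells 1 was tested, and it passed in no comparison (Cftr, unadjusted p under 0.05 in 1 of the 3, against FVB in Tg-RKIP; 0 calls in DESeq2 and limma). Of 14 transcription factors 4 were tested, and 0 passed in edgeR in the GRK2-labelled group against FVB (1 at an unadjusted p under 0.05, 0 in DESeq2 and 0 or 1 in limma). In Tg-RKIP 2 rose, Creb3l1 (0.58 ± 0.10, adjusted p = 2.1e-05) and Trp63, the basal cell factor (0.63 ± 0.19, adjusted p = 0.00482), and 1 fell, the epithelial factor Grhl2 (-2.09 ± 0.17, adjusted p = 3.1e-10). Nkx2-1, which directs lung identity, had at most 2 reads in any library, and Foxa2 at most 4, with 0 in each FVB library. Among the 10 untested factors with a read, 4 (Foxa1, Foxa2, Elf3 and Elf5) had no FVB read but reads in both transgenic groups. Elf3 had 5, 7 and 5 reads in Tg-RKIP and 3, 5 and 4 in the GRK2-labelled group.

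**Figure D4:**
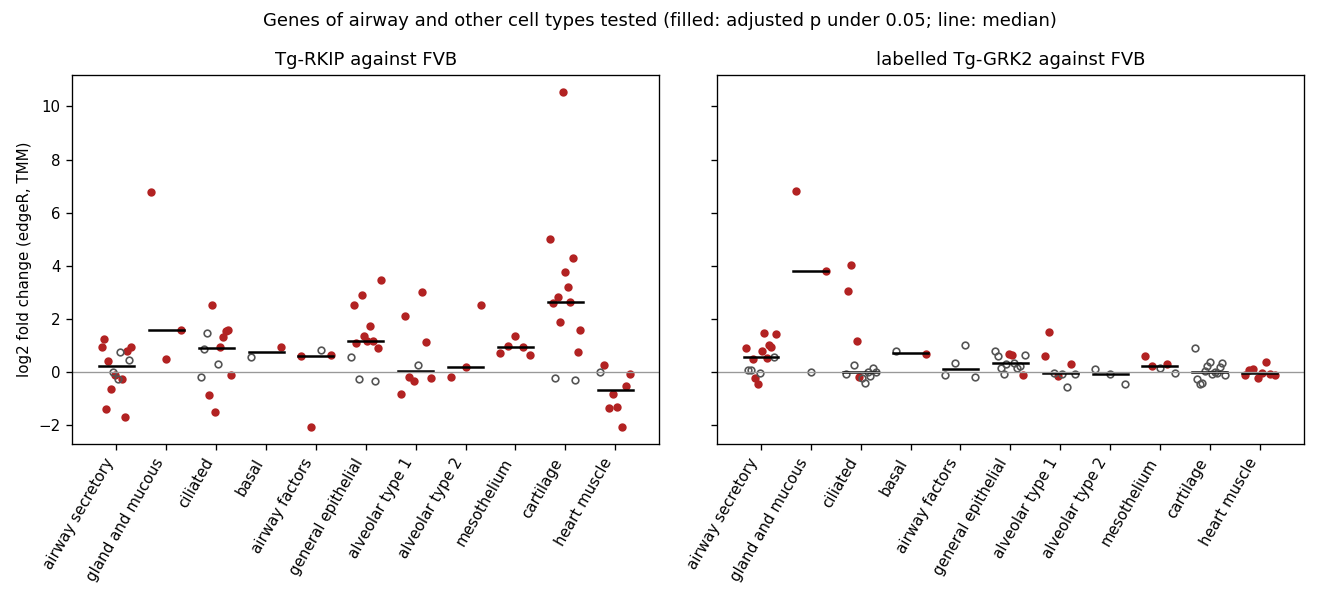
Log2 fold change (edgeR) of each tested gene of 11 lists, in Tg-RKIP (left) and the GRK2-labelled group (right) against FVB, with filled points for an adjusted p under 0.05 and a line at the list's median. Ltf is the highest airway point in both panels, at 6.78 and 6.81, and the cartilage list has a median of 2.62 on the left and -0.01 on the right.

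Airway genes with too few reads to be tested were also unevenly spread. There were 55 such genes with at least 1 read. Together they held 173, 212 and 168 reads in Tg-RKIP, 146, 178 and 188 in the GRK2-labelled group and 43, 50 and 36 in FVB. All 11776 untested genes with a read summed to 17553 to 22909, 13575 to 15441 and 12444 to 15117 reads in the same groups. Of the 55, 16 (29.1%) had no FVB read but reads in both transgenic groups, against 7.78% of all untested genes with a read. The lists were chosen with earlier results of these data known, and the shares were not matched for reads per gene. They are a description and not a test. The share differed between lists, from 0 of 7 other secretory genes to 5 of 20 ciliated genes, 4 of 10 transcription factors, 2 of 8 genes of rare cells, 2 of 4 basal genes and 3 of 6 gland and mucous genes. The 7 secretory genes held 5, 4 and 1 reads in Tg-RKIP, 4, 11 and 2 in the GRK2-labelled group and 6, 4 and 2 in FVB. Foxj1, the master factor of motile cilia, was one of the 55. It had 4, 3 and 2 reads in Tg-RKIP, 6, 16 and 17 in the GRK2-labelled group and 0, 1 and 0 in FVB. Ccno, of the ciliated list and also one of the 55, went the other way between the transgenic groups. It had 8, 16 and 15 reads in Tg-RKIP, 1, 3 and 1 in the GRK2-labelled group and 1, 1 and 0 in FVB. Krt5 and Krt15, keratins of basal cells, had 0 reads in each FVB library and 2 to 15 reads in each transgenic library. On the same list, Krt17 had 0 reads in every library. Dapl1 had 0 reads in each Tg-RKIP library, 2, 0 and 1 in the GRK2-labelled group and 0, 0 and 2 in FVB. Foxj1, Ccno, Krt5, Krt15, Krt17, Dapl1, Nkx2-1, Foxa1, Foxa2, Elf3 and Elf5 are named here after their values were seen. So are the genes listed above for their low reads.

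Markers of neighbouring cell types were read in the same way. Of 22 general epithelial genes, 12 were tested, and 9 rose in Tg-RKIP, while 2 rose and 1 fell (Spint2, -0.14 ± 0.04, adjusted p = 0.0224, edgeR) in the GRK2-labelled group. Krt18, a keratin of simple epithelia, had 436, 514 and 459 reads in Tg-RKIP, 51, 65 and 77 in the GRK2-labelled group and 53, 47 and 48 in FVB. Krt19, another such keratin, had 220, 298 and 239 reads in Tg-RKIP, 124, 126 and 136 in the GRK2-labelled group and 66, 85 and 77 in FVB. Krt19 rose in both (1.36 ± 0.10 and 0.66 ± 0.11, adjusted p = 9.8e-11 and 0.00015), and Krt18 rose in Tg-RKIP (2.88 ± 0.11, adjusted p = 1.01e-15). The list summed to 130 to 134 TPM in Tg-RKIP, 44.1 to 47.8 TPM in the GRK2-labelled group and 43 to 43.4 TPM in FVB, so its order was not that of the members.

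Of the alveolar markers, the surfactant genes had few reads, while others on the same lists, such as Abca3 (676 to 1010 reads per library) and Clic5 (10772 to 15358), had many in every group. Sftpc, the defining product of alveolar type 2 cells, had at most 2 reads in any library, and Sftpb, Sftpa1 and Sftpd had 0 to 13 reads. Of 12 genes of this type 3 were tested. In Tg-RKIP, Napsa (2.50 ± 0.26, adjusted p = 1.86e-08) and Lpcat1 (0.17 ± 0.06, adjusted p = 0.0106) rose and Abca3 fell (-0.20 ± 0.05, adjusted p = 0.000847, edgeR), and 0 passed in edgeR in the GRK2-labelled group against FVB (0 at an unadjusted p under 0.05, 0 in DESeq2 and limma). Of 11 alveolar type 1 genes 8 were tested, with 3 higher and 4 lower in Tg-RKIP and 3 higher and 1 lower in the GRK2-labelled group. The median log2 fold change of these 8 was 0.03 in Tg-RKIP and -0.05 in the GRK2-labelled group. Aqp5, a water channel of alveolar type 1 cells and glands, had 17, 25 and 20 reads in Tg-RKIP, 12, 11 and 11 in the GRK2-labelled group and 3, 7 and 1 in FVB. It thus does not stand for the list, and its call in the GRK2-labelled group was lost in DESeq2 (log2 fold change 1.56, adjusted p = 0.0692). Of 6 alveolar macrophage genes 2 were tested. Marco, a scavenger receptor, rose in both groups, from 4, 3 and 3 reads in FVB to 10, 18 and 17 in Tg-RKIP and 26, 21 and 21 in the GRK2-labelled group (1.76 ± 0.44 and 2.63 ± 0.41, adjusted p = 0.0012 and 4.3e-05). Ear2, an eosinophil-associated ribonuclease, rose in Tg-RKIP (1.39 ± 0.45, adjusted p = 0.00888) and stood at -0.09 ± 0.57 in the GRK2-labelled group (adjusted p = 0.933, edgeR). Between the transgenic groups Marco was higher (0.87 ± 0.30, adjusted p = 0.0131) and Ear2 lower (-1.48 ± 0.45, adjusted p = 0.00545) in the GRK2-labelled group.

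Cartilage genes, which the tracheal wall also uses, were high in Tg-RKIP and not in the GRK2-labelled group. Of 17 cartilage genes 13 were tested, and 11 rose in Tg-RKIP. In the GRK2-labelled group 0 rose and 0 fell in edgeR. At an unadjusted p under 0.05, 1 was higher there (Acan, 0.89 ± 0.41) and 2 were lower, while DESeq2 called 0 and limma called 1 lower. Col2a1 had 2593, 3291 and 2563 reads in Tg-RKIP, 1, 1 and 3 in the GRK2-labelled group and 0, 1 and 3 in FVB. All 5 mesothelial genes rose in Tg-RKIP and 3 of them in the GRK2-labelled group, among them Upk3b (0.94 ± 0.04 and 0.29 ± 0.04, adjusted p = 2.8e-15 and 3.6e-05). Thyroid, parathyroid, thymus, squamous, salivary, intestinal and pancreatic lists held few testable genes (9 in all). Of these 9, 4 rose and 2 fell in Tg-RKIP, and 1 rose and 1 fell in the GRK2-labelled group. Of 4 skeletal muscle genes tested 3 rose in Tg-RKIP and 1 in the GRK2-labelled group, and of 5 liver genes 3 rose and 2 fell in Tg-RKIP and 4 fell in the GRK2-labelled group. Of the 8 heart muscle genes, 1 rose and 6 fell in Tg-RKIP, and 3 rose and 5 fell in the GRK2-labelled group. Of the thyroid list, Tshr, the thyrotropin receptor, had 9, 13 and 7 reads in Tg-RKIP, 20, 12 and 10 in the GRK2-labelled group and 0 in FVB. Alb, of the liver list, showed the reverse, with 39, 46 and 42 reads in FVB, 0 in each Tg-RKIP library and 0, 0 and 2 in the GRK2-labelled group. What part tissue of these types had in the members' reads was not tested.

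Few genes combined a lack of FVB reads with many reads in every transgenic library. Over the whole table, 7 genes had 0 reads in each FVB library and at least 10 reads in each of the 6 transgenic libraries, and 5 of them were members (Scgb1a1, Bpifa1, Scgb3a2, Sec14l3 and Reg3g). The other genes were the immunoglobulin kappa variable genes Igkv2-137, with 36, 23 and 41 reads in Tg-RKIP and 10, 22 and 22 in the GRK2-labelled group, and Igkv6-23, with 16, 26 and 15 reads in the former and 16, 26 and 11 in the latter. This count was made after the values were seen, and the members' part in it follows from how they were chosen. It also depends on the cut of 10 reads. Among 11776 genes with a read but too few to be tested, 916 had no FVB read and reads in both transgenic groups.

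Likeness in shape was also scored, by Pearson's r over the 9 libraries between log2(CPM + 1) of a gene and the mean of the members on the same scale. Among 13075 further genes with a mean of at least 50 reads in a group, the 12 most like the members were Fam53b (r = 0.990), Acaca, 1110002E22Rik, Elovl6, Egr1, Prune2, Zfp651, Adgrl1, Mid1, Tnxb, Trim72 and Enpep (r = 0.959). The points share library depth and composition, and r takes no account of the size of a change. None of the 12 was near 0 in FVB. Elovl6, a fatty acid elongase, had the largest change of the 12, with 137, 207 and 156 reads in Tg-RKIP, 222, 201 and 249 in the GRK2-labelled group and 76, 92 and 65 in FVB (0.73 ± 0.11 and 1.43 ± 0.11 on the log2 scale). Acaca, the carboxylase that starts fatty acid synthesis, stood at 0.23 ± 0.05 and 0.81 ± 0.04. On the TMM scale only 4 of the 12 lay above FVB in Tg-RKIP, against 12 of 12 when reads were scaled to library size alone.

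Genes beside the members on the chromosomes were read as well. The nearest genes with at least 30 reads on either side were 16 distinct genes, 1.7 to 1748.6 kb away, of which 12 were tested. Genes with fewer reads, such as Bpifa5, were passed over, so that the neighbours have reads follows largely from this cut. The neighbours are described by their reads and changes. They were looked up after the members' values were seen. Of the 12, 3 rose and 9 fell in Tg-RKIP against FVB (36.8% and 37.1% of all genes tested). In the GRK2-labelled group 1 rose and 2 fell (12.2% and 12.2% of all). The log2 fold changes of the 12 lay between -1.39 and 0.52 and between -0.17 and 0.65, respectively. Ahnak, 6.7 kb from Scgb1a1, had 16663 to 22840 reads in Tg-RKIP and 19246 to 22795 in FVB. Tollip, 1.7 kb from Muc5b, had 2664 to 3415 and 2382 to 2892 reads in the same groups. Sec14l4, 16.8 kb from Sec14l3, had too few reads to be tested. It had 16, 11 and 10 reads in Tg-RKIP, 5, 4 and 6 in the GRK2-labelled group and 0, 3 and 2 in FVB.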

How the data were processed

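Reads per transcript were deposited as whole-number counts for 127558 transcripts (the authors' table of total transcript reads), and TPM (abundance scaled by transcript length and library total) was deposited per library. Recomputing TPM from the counts differed by at most 5.50e-06. The submitters' processing notes name GRCm39, and the aligner and annotation release are not given in the sources used here. Counts and TPM were summed by gene name. Groups were compared with edgeR 4.0.16 (quasi-likelihood test, TMM, genes kept by filterByExpr, all 9 libraries in one fit, Benjamini-Hochberg, threshold 0.05) in R 4.3.3, and checked on simulated data. DESeq2 1.42.0, limma 3.58.1 on log2(TPM + 0.1) and log2(TPM + 1), other scalings and filters, a replicate block and leaving out each library were alternatives. Log2 fold changes are given ± SE. The members and the gene lists were chosen with earlier results of these data known. From each list, up to 4 genes by mean TPM and up to 4 per comparison by absolute log2 fold change (past the threshold, at least 20 reads in the higher group) could be named, and so could family genes with at least 30 reads and the 12 genes most like the members. Correlations of same-numbered libraries' deviations lay between -0.041 and 0.042, so no strong effect shared by libraries of the same number was seen. With 3 libraries per group this cannot show that they are unpaired. Libraries held 25458108 to 33447654 reads. A count of 0 allows up to 3 reads, which is 0.0897 to 0.118 CPM.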

Additional observations from a re-analysis of the deposited data

Results flagged for a closer look

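Muc4, a membrane mucin of airway and other epithelia, differed in direction between the transgenic groups. Its log2 fold change was 2.71 higher in the GRK2-labelled group than in Tg-RKIP (adjusted p = 9.59e-06, edgeR), with -1.71 against FVB in Tg-RKIP and 1.00 in the GRK2-labelled group. All 3 GRK2-labelled libraries (12, 19 and 25 reads) lay above all 3 Tg-RKIP libraries (3, 5 and 2 reads). The rise against FVB in the GRK2-labelled group (adjusted p = 0.0498) was not called by DESeq2 (adjusted p = 0.196).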

How the results depend on the processing

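Of 1031 alternative values for 61 comparisons of single genes outside the members, 989 kept direction and call, 36 lost the call, 6 gained it and 0 changed direction. Of 100 alternative values for the difference of single members between the transgenic groups, 84 moved by less than the replicate spread, 16 moved further and 0 changed direction. These log2 differences lay between 0.506 and 4.40, where the main values ran from 0.876 (Bpifa1) to 3.35 (Muc5b). The size of a single member's ratio thus depends on the scale and setting.

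With library size alone, which raises the median gene in Tg-RKIP against FVB from 0.0085 to 0.3833 on the log2 scale, 9709 genes were higher and 2650 lower there (5709 and 5751 with TMM). Against Tg-RKIP, 2851 were then higher and 9606 lower in the GRK2-labelled group (5677 and 5874 with TMM), and 17 airway list genes were lower (11 with TMM). The members' sum then differed by 6.66 (Tg-RKIP against FVB) and 1.06 (GRK2-labelled against Tg-RKIP) on the log2 scale, and in TPM by 7.16, 8.25 (GRK2-labelled against FVB) and 1.10, where TMM gave 6.28, 7.70 and 1.42. Limma on log2(TPM + 0.1) and log2(TPM + 1) called 8932 and 8956 genes higher and 1964 and 1960 lower in Tg-RKIP against FVB, 815 and 807 lower in the GRK2-labelled group against FVB (DESeq2 1206), and 2296 and 2308 higher there than in Tg-RKIP. For the airway lists limma called 5 and 5 lower in Tg-RKIP, 6 and 7 higher in the GRK2-labelled group, and 5 and 5 higher there than in Tg-RKIP. With at least 1 CPM in 3 libraries these last counts were 7 and 8, since fewer genes were tested, and with no filter beyond 1 read 28 airway genes were higher in Tg-RKIP.

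The replicate block left 12 airway genes higher in the GRK2-labelled group against FVB (14 without it) and changed 3 of 61 single-gene calls: Muc4 (adjusted p = 0.0636) and Lypd2 (0.0622) were lost and Scgb1c1 (0.0493) was gained in the GRK2-labelled group. Pon1, Lypd2, Muc4 and Aqp5 against FVB were also lost in DESeq2, in the GRK2-labelled group, and without single libraries (Aqp5 without Tg-GRK2 library 1 or 2 or FVB library 1 or 3, adjusted p up to 0.121). In Tg-RKIP against FVB, Pon1 was lost in DESeq2 (adjusted p = 0.0663) and without FVB library 3 (0.113). With library size alone, Muc1 (adjusted p = 0.0173) and Dnah5 (0.0222) passed in Tg-RKIP against FVB. Apart from changes that follow from testing fewer genes, the cause was not tested.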
